A study of Homo sapiens with 6 samples.

Results

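The mitochondrial genome transcripts are the RNAs read from the small circular genome inside the mitochondrion, listed in the count table under chromosome M (chrM). Members were taken as every row of that table on chrM, which gave 37 of 28565 genes. They comprise 2 ribosomal RNAs (rRNAs), 22 transfer RNAs (tRNAs) and 13 protein-coding mRNAs. By the annotation, 28 of them are copied into the heavy-strand transcript (2 rRNAs, 14 tRNAs and 12 mRNAs) and 9 into the light-strand transcript (8 tRNAs and the mRNA MT-ND6).

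The libraries were made from HK-2, an immortal human cell line derived from the proximal tubule of the kidney. The cells of all 6 carried an overexpression plasmid for the long noncoding RNA LncR2, introduced with a lipid reagent. The labels give 3 libraries as 0 h and 3 as 24 h of exposure to cisplatin, a platinum drug that crosslinks DNA, and these are called the 0 h and 24 h groups. Cells with a control plasmid were not analysed here, so the effect of LncR2 was not measured. The labels give 48 h of incubation after transfection for all 6 libraries and do not say how the cisplatin exposure lies within or after it, so any difference between the groups in time since transfection cannot be told apart from cisplatin. Whether a group's libraries are separate cultures is not stated in the labels, and the series' design text mentions 2 biological replicates for each treatment. P-values therefore measure the spread between these libraries, which may be technical.

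As background, human mitochondrial DNA is transcribed on both strands into long precursors by the polymerase POLRMT with the factors TFAM and TFB2M. The tRNAs lie between most of the longer genes, and their removal by RNase P and the enzyme ELAC2 releases the rRNAs and mRNAs, a scheme known as tRNA punctuation. The rRNAs form the core of the mitochondrial ribosome, and the mRNAs encode subunits of respiratory complexes I, III and IV and of ATP synthase, whose other subunits are made from nuclear genes. Proximal tubule cells depend on respiration for solute transport, and cisplatin can also form adducts on mitochondrial DNA.

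At the 5′ end of the heavy-strand transcript the tRNA for phenylalanine, MT-TF, is followed directly by the 12S rRNA gene MT-RNR1 (chrM:648-1601), the tRNA for valine MT-TV, the 16S rRNA gene MT-RNR2 (chrM:1671-3229) and MT-TL1, the tRNA for leucine (UUR codons). Between these 5 genes there are 0 bases, and 2 bases separate MT-TL1 from the first mRNA gene, MT-ND1. The 3 tRNAs that frame the rRNAs are shown because the results below turn on them and their neighbours. They are taken from GENCODE 29 (GRCh38), plus strand, 5′ to 3′, with the anticodon in capitals.
MT-TF, chrM:577-647: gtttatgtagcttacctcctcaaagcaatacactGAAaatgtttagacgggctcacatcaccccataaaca
MT-TV, chrM:1602-1670: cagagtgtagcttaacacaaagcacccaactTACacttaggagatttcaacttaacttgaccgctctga
MT-TL1, chrM:3230-3304: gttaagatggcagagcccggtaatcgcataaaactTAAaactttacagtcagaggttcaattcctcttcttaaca

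The strands differ in base composition, and the junction of MT-ND5 with MT-ND6 shows it. Here the last 60 bases of each gene are printed on the gene's own strand with every G in capitals. The 2 genes end tail to tail at chrM:14148 and chrM:14149, so each stretch borders the other.
MT-ND5, chrM:14089-14148, plus strand: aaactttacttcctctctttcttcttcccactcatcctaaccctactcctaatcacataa
MT-ND6, chrM:14149-14208, minus strand: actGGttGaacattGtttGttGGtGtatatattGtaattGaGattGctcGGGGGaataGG
The MT-ND5 stretch holds 0 G and 23 C, and the MT-ND6 stretch holds 19 G and 4 C. Over whole genes, MT-ND6 RNA was 35.6% G and 7.05% C, while the 12 heavy-strand mRNAs ranged from 6.28% to 16.2% G and from 29.5% to 36.0% C.

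Library depth was 5028881 to 5844246 counts in the 0 h group and 6022268 to 7248754 counts in the 24 h group. Keratins KRT8 and KRT18 and the renal transcription factor PAX8 were expressed in every library, as were the brush-border genes MME (124 to 169 counts) and GGT1 (263 to 445 counts), whereas CDH1, ANPEP, AQP1, CUBN and SLC34A1, the last 4 of them markers of mature proximal tubule, had 0 to 6 counts per library. Marker lists of other cell types summed to 3 to 10 counts per library for leukocytes (3 genes), 0 to 4 for endothelium (4 genes) and 47 to 65 for fibroblasts and smooth muscle (6 genes). The 24 h libraries were compared with the 0 h libraries by edgeR's quasi-likelihood test over 13389 genes, and a gene was called at a Benjamini-Hochberg adjusted p under 0.05. Levels are CPM, that is counts scaled to a common library size after TMM scaling, and each fold change is a log2 ratio of the 24 h to the 0 h group ± standard error, n = 3 libraries per group.

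Of the 37 chrM genes, 19 passed the filter on low counts, namely both rRNAs, all 13 mRNAs and the tRNAs MT-TF, MT-TV, MT-TL1 and MT-TM. At 24 h, 3 of these 19 were called lower (MT-RNR1, MT-RNR2 and MT-TV) and 0 higher, against 2.08% of all tested genes called lower and 0.866% called higher. At an unadjusted p under 0.05, 12 of the 19 were lower and 1, MT-ND6, was higher, where the shares of all tested genes were 9.93% and 8.22%. The groups did not overlap in 6 members that were lower and 1 that was higher, against 11.7% and 10.9% of all tested genes. The median log2 fold change of the 19 was -0.34, beside -0.00 for all tested genes. MT-TV and MT-TM passed the filter through their 0 h counts, and of the 17 members without them, 2 were called lower, 11 were lower at an unadjusted p under 0.05 and 4 were lower without overlap. The chrM genes share libraries and precursor RNAs, so these counts are not independent of each other. In bulk RNA, fewer mitochondria or fewer cells of a kind cannot be told apart from less RNA in each.

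**Figure D1:**
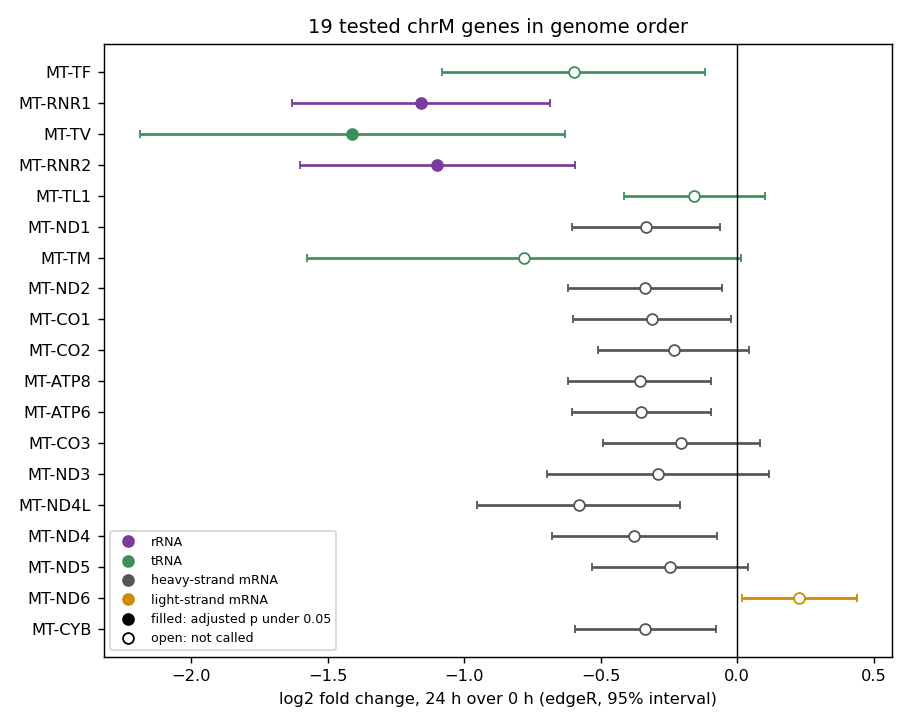
Log2 fold change of 24 h over 0 h (x axis) with its 95% interval for the 19 tested chrM genes, ordered along the genome from MT-TF at the top to MT-CYB at the bottom. Filled points are the 3 called genes, MT-RNR1, MT-TV and MT-RNR2, and MT-ND6 is the 1 gene whose point lies above 0.

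The mitochondrial rRNAs showed the largest change among abundant chrM RNAs, each falling by more than 1 on the log2 scale. MT-RNR1, the 12S RNA of the small mitochondrial ribosomal subunit, stood at 3282, 2825 and 5308 CPM at 0 h and at 2306, 1247 and 1563 CPM at 24 h, in the order of replicates 1, 2 and 3 that all lists of values follow. All 24 h libraries lay below all 0 h libraries, and 0 h replicate 3 was far above the other two of its group. Within its group that library also stood apart over all genes. Its chi-square per gene was 10.6 against 0 h replicate 1 and 7.77 against 0 h replicate 2. That pair had 3.90, and the 24 h libraries had 5.82 to 6.85 among themselves. The library was also the deepest at 0 h, with 5844246 counts. Pairs drawn across the groups ran from 5.10 to 15.4, so this measure did not fully part the groups. The lowest value of 24 h replicate 1, 5.10, was with a 0 h library, replicate 1. For 0 h replicate 3, 24 h replicate 3 (9.95) was nearer than 0 h replicate 1. All remaining libraries, and 0 h replicate 3, had their lowest value inside their own group. The log2 fold change of MT-RNR1 was -1.16 ± 0.22 (95% interval -1.63 to -0.69), with an adjusted p of 0.00963 by edgeR's quasi-likelihood test. MT-RNR2, the 16S RNA of the large subunit, had 3952, 4083 and 7943 CPM at 0 h and 3268, 1861 and 2339 CPM at 24 h. The order of the libraries was almost that of MT-RNR1, again with no overlap and with 0 h replicate 3 highest. Its log2 fold change was -1.10 ± 0.24 (95% interval -1.60 to -0.59, edgeR adjusted p = 0.0196).

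The ratio of the 2 rRNAs to each other did not separate the groups. The log2 ratio of MT-RNR2 to MT-RNR1 counts was 0.27, 0.53 and 0.58 at 0 h and 0.50, 0.58 and 0.58 at 24 h, so that 0 h replicate 1 alone stood apart (exact two-sided permutation p = 0.7). With 3 libraries against 3 this test cannot give a p below 0.1. Per length, MT-RNR1 had 2245 ± 770 FPKM and MT-RNR2 1924 ± 811 FPKM at 0 h (SD, n = 3), and the values at 24 h were 1173 ± 299 and 1050 ± 238 FPKM. Within each of the 6 libraries MT-RNR1 had the higher FPKM, at 109 to 136 for each 100 FPKM of MT-RNR2.

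The call rested on some settings and libraries. Without 24 h replicate 2, the library with the least of both rRNAs, the values were -0.97 for MT-RNR1 and -0.92 for MT-RNR2, and edgeR's adjusted p rose to 0.103 and 0.174. Without 24 h replicate 3, MT-RNR2 was also no longer called (edgeR adjusted p = 0.0660). Without 0 h replicate 3, the library with the most, the values were smaller at -0.84 and -0.69, yet both remained called (edgeR adjusted p = 2.66e-06 and 1.34e-04). DESeq2 gave the same fold changes with adjusted p of 0.0884 and 0.165, and edgeR with robust dispersion gave 0.101 and 0.157. Limma on log2(FPKM + 1) gave -0.91 and -0.82, with adjusted p of 0.0503 and 0.0739.

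Rows listed as nuclear rRNA were also lower at 24 h. All libraries were depleted of rRNA with a commercial kit before they were built, and the count table holds 126 rows typed as nuclear rRNA. They were sorted by symbol into 5.8S and 5S kinds. Pseudogene copies with such symbols were not set apart, so these sums may not stand for the functional rRNA genes. Summed over the 8 rows named as 5.8S, the level was 58.6, 65.9 and 70.3 CPM at 0 h and 51.0, 41.5 and 32.0 CPM at 24 h. The 118 rows named as 5S summed to 19.7, 35.1 and 40.1 CPM at 0 h (99, 179 and 227 counts). At 24 h they summed to 11.4, 6.22 and 9.05 CPM (69, 43 and 66 counts). In both sums all 24 h libraries were below all 0 h libraries, as for the mitochondrial rRNAs, and 0 h replicate 3 was highest. Of all tested genes, 11.7% were lower without overlap. The order within groups was not shared throughout, since at 24 h the 5.8S sum was lowest in replicate 3 and both mitochondrial rRNAs in replicate 2. The part of rRNA left after depletion in the mitochondrial rRNA result was not tested.

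**Figure D2:**
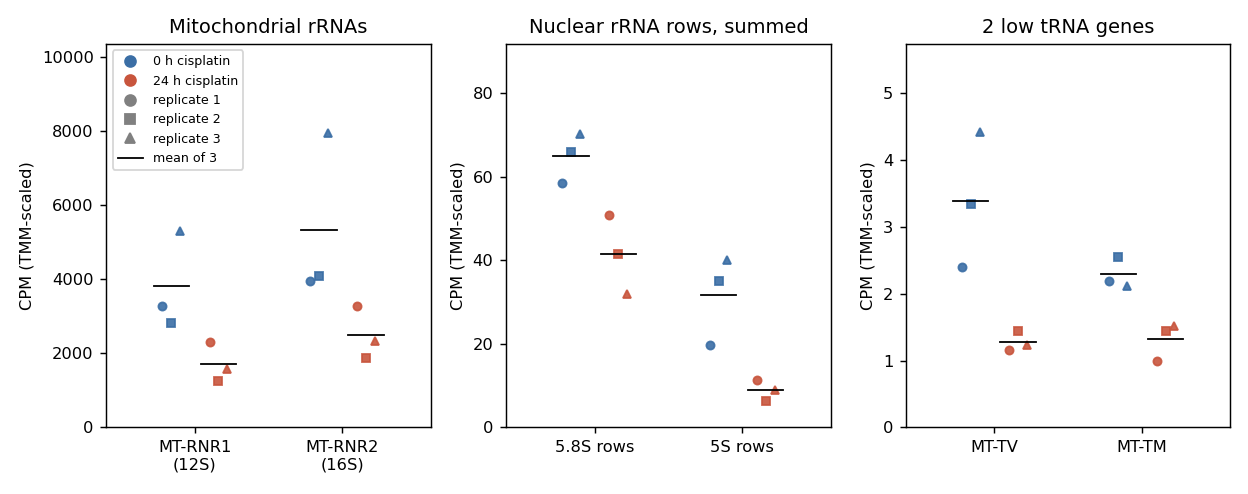
Level in CPM (y axes from 0) in each library of the 2 mitochondrial rRNAs (left), the summed nuclear 5.8S and 5S rows (middle) and the low-count tRNA genes MT-TV and MT-TM (right), with group means as bars. The 24 h points of both mitochondrial rRNAs and both nuclear sums lie below their 0 h points, MT-TV and MT-TM passed the filter through their 0 h counts, and 0 h replicate 3 is highest for both mitochondrial rRNAs.

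Among the tRNAs, counts were very uneven. MT-TL1 alone made up 73.6% to 80.2% of all tRNA counts in each library. The 0 h libraries held 363, 532 and 515 counts of it (72.4, 104 and 90.9 CPM), and the 24 h libraries held 475, 572 and 576 (78.4, 82.8 and 79.0 CPM). The 24 h values lay inside the 0 h range, and the log2 fold change was -0.16 ± 0.12 (edgeR adjusted p = 0.548). MT-TL1 lies between MT-RNR2, which fell, and MT-ND1, which was not called. Per 100 MT-ND1 counts there were 1.92, 2.15 and 2.13 MT-TL1 counts at 0 h and 2.20, 2.30 and 2.58 at 24 h, and per 100 MT-RNR2 counts 1.83, 2.55 and 1.14 and then 2.40, 4.45 and 3.38. These ratios to neighbours, and those below, were chosen after their values were seen and carry no test.

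MT-TV, the tRNA between the 2 rRNAs, was called lower on few counts. The 0 h libraries held 12, 17 and 25 counts of it (2.39, 3.33 and 4.41 CPM), and the 24 h libraries held 7, 10 and 9 (1.15, 1.45 and 1.23 CPM). The groups did not overlap in CPM, and the log2 fold change was -1.41 ± 0.37 (95% interval -2.19 to -0.63, edgeR adjusted p = 0.0494). The call held in 1 of 6 fits without a single library, the one without 0 h replicate 1 (edgeR adjusted p = 0.0461), and DESeq2 gave an adjusted p of 0.123. Set against its neighbour, MT-TV had 7.29, 11.8 and 8.32 counts per 10000 MT-RNR1 counts at 0 h and 5.01, 11.6 and 7.90 at 24 h, and here the groups overlapped.

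MT-TF, at the start of the heavy-strand transcript, had 8.17, 14.9 and 16.6 CPM at 0 h and 8.74, 8.10 and 9.46 CPM at 24 h. Its 0 h replicate 1 lay among the 24 h libraries, and the log2 fold change of -0.60 ± 0.23 was not called (edgeR adjusted p = 0.171), although without 0 h replicate 1 it was -0.84 and called (edgeR adjusted p = 0.0280). MT-TM, the only mitochondrial tRNA for methionine, had 2.19, 2.55 and 2.12 CPM at 0 h and 0.990, 1.45 and 1.51 CPM at 24 h. The groups did not overlap, and the fold change of -0.78 ± 0.37 was not called (edgeR adjusted p = 0.284). MT-TV and MT-TM passed the filter only narrowly, on 0 h libraries with 11 to 25 counts, so they do not stand for the tRNAs as a group.

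The other 18 tRNAs were too low to test, and all 8 light-strand tRNAs are among them. They had 0 to 10 counts in any library, totals of 1 to 46 over the 6 libraries, and at least 1 library at 0 counts in 9 genes. Their summed counts were 43, 57 and 54 at 0 h and 58, 65 and 59 at 24 h. MT-TP, MT-TT, MT-TE and MT-TH were the fullest of them, while MT-TY, the tRNA for tyrosine, had a single count over all libraries, in 24 h replicate 3. A library that counts 0 allows up to 3 counts by counting error alone. Mature tRNAs are short and heavily modified, and reads assigned to a tRNA gene may also come from precursors that contain it.

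The 12 heavy-strand mRNAs all had fold changes below 0, and 0 of them were called by edgeR without covariates, DESeq2 or limma on all 6 libraries. With the replicate number as a block, edgeR called some of them as lower, where 959 of 13389 genes were. Among these were MT-ND1, MT-ND2, MT-ATP8 and MT-ATP6 (edgeR adjusted p = 0.0383, 0.0293, 0.00749 and 0.0186). Their log2 fold changes ran from -0.58 to -0.20 with a median of -0.33. By edgeR, 8 had an unadjusted p under 0.05, where 9.93% of all tested genes were lower at that level. In 2 (MT-ND1 and MT-CYB) the groups did not overlap in CPM, where 11.7% of all tested genes were lower without overlap. In FPKM the groups overlapped in both of these. The level of change depended on how libraries were scaled. The table's total counts were 56.1% to 57.9% of the read totals by which the authors scaled their FPKM at 0 h and 61.1% to 69.4% at 24 h, and scaling by those read totals shifted the median log2 fold change over all genes to 0.24. With that scaling the sign turned for MT-CO2 (0.00) and MT-CO3 (0.03), and the other 10 heavy-strand mRNAs stayed below 0. Without 0 h replicate 1, in which each of the 12 had its lowest CPM of the 0 h group, edgeR called 4 of the 12 as lower (MT-ATP8, MT-ATP6, MT-ND4L and MT-ND4), against 1.53% of all genes tested in that fit.

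Complex I, the NADH dehydrogenase that passes electrons to ubiquinone, draws 7 subunits from chrM, 6 of them from the heavy strand. MT-ND1, the first mRNA after the rRNAs, had 3762, 4847 and 4262 CPM at 0 h and 3557, 3602 and 3060 CPM at 24 h. The 24 h libraries were all lower, the nearest pair being close, and the log2 fold change was -0.33 ± 0.13 (edgeR adjusted p = 0.177). MT-ND4, a membrane proton-pumping subunit, had 3209, 4549 and 4326 CPM and then 3066, 3481 and 2758 CPM (-0.38 ± 0.14, edgeR adjusted p = 0.170). Its 0 h replicate 1 fell within the 24 h range, which kept the groups from separating. MT-ND2, MT-ND3 and MT-ND5, also membrane subunits, gave -0.34 ± 0.13, -0.29 ± 0.19 and -0.25 ± 0.13 with overlapping groups.

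MT-ND4L, a small membrane subunit, had the most negative value among mRNAs. It had 425, 716 and 844 CPM at 0 h and 420, 450 and 458 CPM at 24 h, so that 2 of the 0 h libraries were well above the rest and 0 h replicate 1 was not. The log2 fold change was -0.58 ± 0.18 (edgeR adjusted p = 0.0901), and without 0 h replicate 1 it was -0.82 and called (edgeR adjusted p = 8.19e-04). The end of MT-ND4L is also the start of MT-ND4 on the same RNA, and the 7 shared bases are in capitals here on the plus strand.
MT-ND4L end and MT-ND4 start, chrM:10736-10790: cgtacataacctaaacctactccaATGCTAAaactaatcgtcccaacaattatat
Reads across this join can belong to either gene, and counts of MT-ND4L per 100 of MT-ND4 were 13.2, 15.7 and 19.5 at 0 h and 13.7, 12.9 and 16.6 at 24 h, with overlap.

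Complex III, the cytochrome bc1 complex, has MT-CYB (cytochrome b) as its 1 mitochondrially encoded subunit. It had 2820, 3606 and 3326 CPM at 0 h and 2610, 2690 and 2427 CPM at 24 h, with no overlap. The log2 fold change was -0.34 ± 0.12 (edgeR adjusted p = 0.150). In FPKM the groups overlapped, with 0 h replicate 1 at 1386 below 24 h replicate 1 at 1406. Complex IV, cytochrome c oxidase, takes its 3 core subunits from chrM. MT-CO1 had 1486, 2105 and 2049 CPM and then 1594, 1609 and 1341 CPM (-0.31 ± 0.14, edgeR adjusted p = 0.238). MT-CO2 and MT-CO3 had the values closest to 0 of all heavy-strand mRNAs, at -0.23 ± 0.13 and -0.20 ± 0.14, and the groups overlapped in all 3 genes of the complex.

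ATP synthase takes the subunits MT-ATP8 and MT-ATP6 from chrM, encoded one after the other with an overlap of 46 bases. That overlap is in capitals, plus strand.
MT-ATP8 end and MT-ATP6 start, chrM:8503-8596: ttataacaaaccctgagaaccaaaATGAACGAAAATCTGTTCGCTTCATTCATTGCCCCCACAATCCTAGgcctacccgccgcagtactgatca
MT-ATP8 had 240, 310 and 316 CPM at 0 h and 211, 257 and 208 CPM at 24 h, and MT-ATP6 had 250, 339 and 337 CPM and then 253, 248 and 224 CPM. Their log2 fold changes were alike, -0.36 ± 0.12 and -0.35 ± 0.12 (edgeR adjusted p = 0.129 and 0.127). Although both lie on the same mature RNA, MT-ATP8 had 309 ± 7.54 FPKM for each 100 FPKM of MT-ATP6 at 0 h (SD, n = 3). How the counting dealt with reads in the overlap is not given in the sources used here, so the levels of both genes are uncertain.

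Per length, the mRNAs of chrM kept nearly the same order in both groups (Spearman's rho 0.98 over 13 genes, which are not independent). MT-ND1 was highest at 2531 ± 339 FPKM at 0 h and 2363 ± 179 FPKM at 24 h (SD, n = 3). MT-CO3 (1822 ± 328), MT-ND4 (1649 ± 302), MT-CYB (1607 ± 207) and MT-ND3 (1468 ± 458 FPKM at 0 h) followed, with group ranges that overlapped. Within each of the 6 libraries MT-CO3 was above the other three. The lowest were MT-ND2 at 556 ± 78.4 FPKM, MT-ND6 at 367 ± 26.3 FPKM and MT-ATP6 at 255 ± 43.1 FPKM. At 24 h MT-ND6 and MT-ND2 were side by side, with 506 ± 32.6 and 517 ± 73.8 FPKM. Across the 12 heavy-strand mRNAs, rho between the distance from the first gene and the log2 fold change was -0.11, and between that distance and the 0 h FPKM 0.24.

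**Figure D3:**
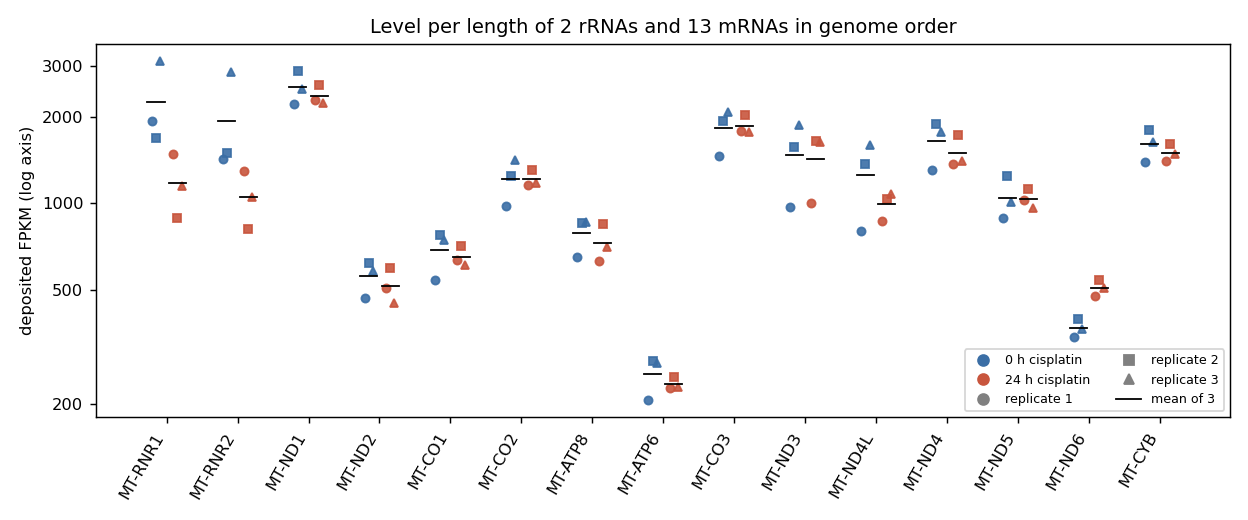
Deposited FPKM (log y axis) of the 2 rRNAs and 13 mRNAs of chrM in each library, in genome order, with the mean of each group as a bar. The 0 h and 24 h points overlap for all heavy-strand mRNAs, the rRNA points at 24 h lie below those at 0 h, and the MT-ND6 points at 24 h lie above.

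MT-ND6, a membrane subunit of complex I, is the single mRNA of the light-strand transcript and was the single tested chrM gene with a fold change above 0. It had 320, 364 and 341 CPM at 0 h and 404, 415 and 381 CPM at 24 h, from 1605 to 2869 counts per library. All 24 h libraries were above all 0 h libraries, and the spread within each group was small. The log2 fold change was 0.23 ± 0.10 (95% interval 0.02 to 0.44), with an unadjusted p of 0.0360 and an adjusted p of 0.235 by edgeR, so it was not called. When libraries were scaled by the read totals behind the FPKM, it was 0.46 and called (edgeR adjusted p = 0.0132). With the summed chrM mRNA counts as the scale, it was 0.52 and not called (edgeR adjusted p = 0.137), and DESeq2 gave 0.261.

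Within the mRNA pool, the share of MT-ND6 was higher in every 24 h library than in any 0 h library. Its share of chrM mRNA counts was 1.59%, 1.35% and 1.32% at 0 h and 2.01%, 1.97% and 2.12% at 24 h, or 1.42% ± 0.152 and 2.03% ± 0.0780 (SD, n = 3). The exact two-sided permutation p was 0.1, the smallest this design allows, or 0.233 after Benjamini-Hochberg adjustment over the 7 shares and ratios compared. Against its neighbours on the other strand the separation was as plain. There were 11.3, 10.1 and 10.3 MT-ND6 counts per 100 MT-CYB counts at 0 h and 15.5, 15.4 and 15.7 at 24 h, and per 100 MT-ND5 counts 11.1, 9.20 and 10.5 and then 13.4, 13.9 and 15.2. The libraries were directional, but whether the counting used strand is not given in the sources used here. Reads of MT-ND6 therefore cannot be told apart from reads of the heavy-strand RNA that runs antisense to it.

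The tRNAs of the light strand did not separate in this way. Their share of tRNA counts was 4.47%, 3.31% and 2.14% at 0 h (21, 23 and 15 counts) and 4.84%, 3.23% and 3.31% at 24 h (29, 23 and 24 counts) (exact two-sided permutation p = 0.6).

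All chrM genes together made up 2.73%, 3.46% and 3.81% of counts at 0 h and 2.60%, 2.40% and 2.21% at 24 h. The means were 3.33% ± 0.551 and 2.40% ± 0.193 (SD, n = 3), without overlap (exact two-sided permutation p = 0.1, adjusted p = 0.233 over the 7 measures). Measured with FPKM in place of counts, the difference shrank from -0.930 to -0.301 percentage points and the groups overlapped (exact permutation p = 0.3). The rRNA share of chrM counts was 26.4%, 20.3% and 33.7% at 0 h and 21.6%, 12.8% and 17.8% at 24 h (26.8% ± 6.75 and 17.4% ± 4.43, exact permutation p = 0.2). Here 24 h replicate 1 lay above 0 h replicate 2, so the groups overlapped, and the difference of -9.42 percentage points became -5.95 without 0 h replicate 3. Without both libraries numbered 3, the differences were -0.597 percentage points in the chrM share and -6.14 in the rRNA share. The tRNA share was 0.315% to 0.400% at 0 h and 0.383% to 0.452% at 24 h, with overlap (exact permutation p = 0.2).

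**Figure D4:**
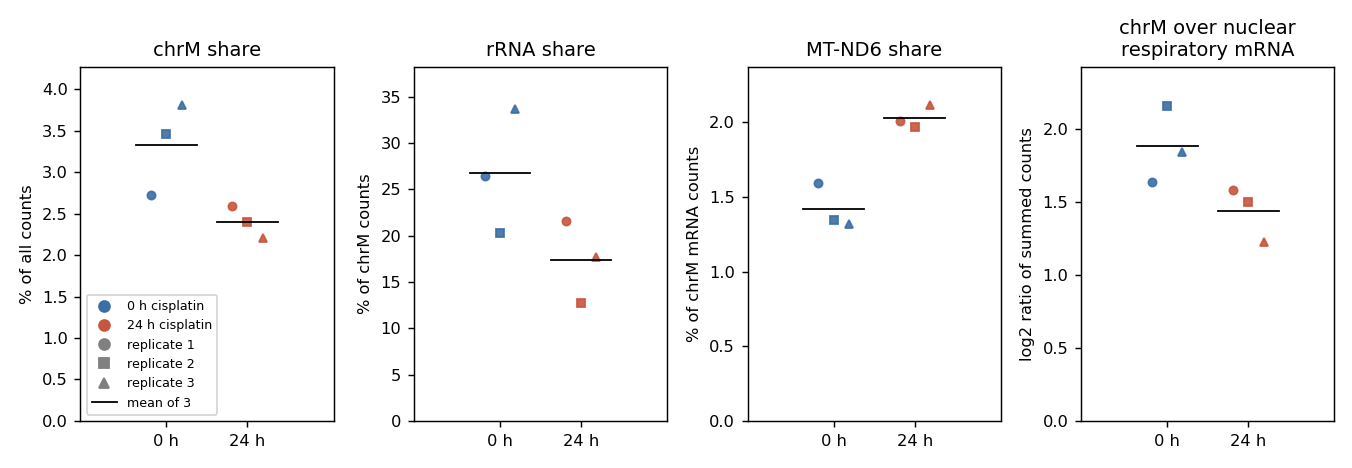
Composition of each library (y axes from 0): chrM share of all counts, rRNA share of chrM counts, MT-ND6 share of chrM mRNA counts, and log2 of chrM mRNA counts over counts of nuclear respiratory subunits. The 0 h and 24 h points are apart in 3 of the 4 panels and overlap in the rRNA share, where 24 h replicate 1 at 21.6% is above 0 h replicate 2 at 20.3%.

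The nuclear genes for the other respiratory subunits were examined beside the chrM mRNAs, since each complex except II combines both kinds. The list has 76 genes and includes the 4 of complex II. All 76 were tested and 0 were called in either direction by edgeR or DESeq2. Fold changes were above 0 in 69 of them, with a median of 0.15, and in 6657 of all 13389 tested genes. Without complex II they were above 0 in 66 of 72, with a median of 0.16. In 16 of the 76 the groups did not overlap and 24 h was higher, where 10.9% of all tested genes were. At an unadjusted p under 0.05, 19 were higher and 0 lower, where 8.22% of all tested genes were higher. NDUFA4, a subunit of cytochrome c oxidase, had 151, 131 and 165 CPM at 0 h and 181, 186 and 209 CPM at 24 h (0.37 ± 0.11, edgeR adjusted p = 0.0851). COX8A, another oxidase subunit, had 77.2, 61.0 and 70.3 CPM and then 88.4, 106 and 82.1 CPM (0.41 ± 0.12, edgeR adjusted p = 0.0872). Both were higher in every 24 h library. Without 0 h replicate 3, edgeR called 13 of the 76 as higher (4.18% of all genes in that fit), and with the read totals behind the FPKM as the scale it called 38 (17.4% of all genes).

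The balance of the 2 genomes was measured as log2 of summed chrM mRNA counts over summed counts of the 76 nuclear subunits, complex II included. It was 1.64, 2.16 and 1.84 at 0 h and 1.59, 1.51 and 1.23 at 24 h, or 1.88 ± 0.26 and 1.44 ± 0.19 (SD, n = 3). The groups did not overlap, although 0 h replicate 1 and 24 h replicate 1 were close (exact two-sided permutation p = 0.1, adjusted p = 0.233 over the 7 measures). This ratio is within a library, so it does not depend on how libraries are scaled to each other.

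Of the 60 nuclear genes that replicate, transcribe, process and regulate the mitochondrial genome, all were tested and 0 were called by edgeR or DESeq2. At an unadjusted p under 0.05, 3 were higher and 5 lower, where 8.22% and 9.93% of all tested genes were, so neither share was above that of all genes. The median was 0.02. TFAM, which packages mitochondrial DNA and starts transcription, had 97.5 ± 19.7 CPM at 0 h and 95.0 ± 3.86 CPM at 24 h (-0.04 ± 0.13). POLRMT, the polymerase, had 16.5, 15.1 and 13.2 CPM at 0 h and 16.5, 18.5 and 17.7 CPM at 24 h (0.24 ± 0.15). The other gene of the transcription group with the smallest p was MTERF2, of the termination factor family, at -0.39 ± 0.21.

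In the remaining roles, the 2 genes with the smallest p were taken from each. For replication and nucleotide supply these were TK2, a mitochondrial thymidine kinase (-0.28 ± 0.13), and PRIMPOL, a primase-polymerase (0.40 ± 0.19). KIAA0391, the catalytic subunit of mitochondrial RNase P, which cuts the 5′ ends of tRNAs, had 44.7 ± 4.96 and 36.7 ± 4.73 CPM (-0.28 ± 0.13), and MTO1, a tRNA modifying enzyme, gave -0.25 ± 0.12. For mRNA stability and decay they were PTCD1 (-0.43 ± 0.16), with 27.5 ± 6.15 and 20.4 ± 0.992 CPM, and the RNA-binding protein FASTKD2 (-0.33 ± 0.15). For rRNA maturation they were the helicase DDX28 (0.35 ± 0.16) and the rRNA methyltransferase RNMTL1, also named MRM3 (0.26 ± 0.17). The biogenesis regulators ESRRA and PPARGC1B gave 0.29 ± 0.13 and -0.40 ± 0.23. The adjusted p values of these 12 genes, POLRMT and MTERF2 included, lay between 0.156 and 0.447 by edgeR. Without 0 h replicate 3, PTCD1 and PPARGC1B were called as lower by edgeR, 2 of 60 where 6.72% of all genes were, and with the read totals behind the FPKM as the scale 10 of the 60 were called as higher, where 17.4% of all genes were.

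Nuclear copies of mitochondrial genes were checked because their reads may be split with or pooled into chrM rows. The table holds 34 such rows, with 100 to 140 counts per library in all, against 137424 to 222439 counts on chrM. Only 2 were tested and 0 called: MTATP6P1 had 10.3 ± 2.15 and 6.63 ± 1.13 CPM (-0.64 ± 0.22, edgeR adjusted p = 0.124), and MTATP8P1 gave -0.34 ± 0.27. The next fullest, MTND5P26, had 1 to 8 counts per library. In windows of 150 bases with up to 2 mismatches, 62.0% of MT-ATP6 windows matched an annotated nuclear copy, as did 59.8% of MT-ND2, 51.5% of MT-CO1 and 48.2% of MT-CO2 windows. For MT-ND1 the share was 25.2%, for MT-CO3 22.7%, for MT-RNR2 1.70% and for MT-ND4 0.0814%. For MT-ND6 and the other 5 mRNAs it was 0. MT-RNR1 had 0 annotated nuclear copies, so no sequence was compared with it and no share is given. The copies that best matched MT-CO1, MT-CO2 and MT-CO3 were not among the 34 rows, so the summed counts leave them out. MT-ATP6, MT-ND2 and MT-CO1, the mRNAs with the highest shares, were among the lowest 4 mRNAs in FPKM at 0 h. MT-ND6, with a share of 0, was also among those 4, and MT-CO2, the next at 48.2%, had 1209 FPKM. Over all 13 mRNAs, which share libraries, rho of the matched share with 0 h FPKM was -0.25 and with the log2 fold change -0.04.

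**Figure D5:**
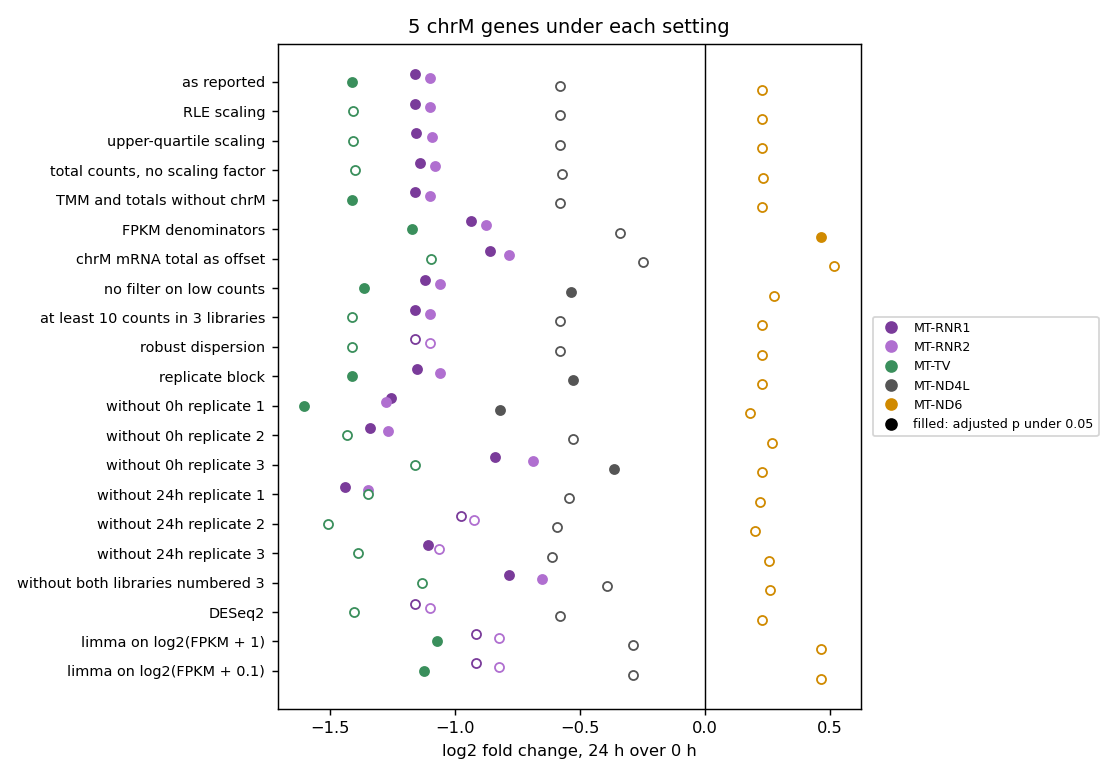
Log2 fold change of 24 h over 0 h (x axis) of MT-RNR1, MT-RNR2, MT-TV, MT-ND4L and MT-ND6 as reported and under each of 20 other settings (rows), with filled points for an adjusted p under 0.05 in that setting. The first 4 genes stay below 0 and MT-ND6 above 0 in every row, while calls of MT-RNR1 and MT-RNR2 are open in 5 and 6 rows.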

How the data were processed

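RNA-seq of 6 HK-2 libraries was used, 3 at 0 h and 3 at 24 h of cisplatin. The authors' deposited table of whole-number counts has 28565 genes. The deposited FPKM table has 28561. The genome build GRCh38 and the tools TopHat2, bcl2fastq and edgeR are named, without versions, in the submitters' processing notes. How reads were counted, over which annotation, with or without strand, and what was done with multiply mapped reads is not given in the sources used here, so overlapping, antisense and copied genes are uncertain. Reads carried no molecular identifiers, and intervals on shares cover counting error only.

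Counts of all genes were fitted with edgeR 4.0.16 (quasi-likelihood test, TMM, default filterByExpr, no covariates, limma 3.58.1, R 4.3.3), with Benjamini-Hochberg adjustment over the 13389 genes tested. The common biological coefficient of variation was 0.103. The script was tested on simulated data. For shares and ratios the test was an exact permutation of libraries, two-sided. The read totals by which the authors scaled FPKM, called FPKM denominators, were recovered as count divided by FPKM and length, and the chrM genes gave the same totals. Identifiers of all 37 chrM genes matched GENCODE 29 (GRCh38), which gave positions and sequences. Fold changes from limma are on the log2(FPKM + 1) and log2(FPKM + 0.1) scales, which understate changes of low genes.

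All chrM genes were accounted for. TFAM, POLRMT and the 2 genes with the smallest p per role of the machinery list were named, the 2 with the smallest p of the nuclear respiratory list, and the 3 fullest nuclear copies. Other genes were chosen after their values were seen. Members and lists were chosen with earlier results of these data known. Alternatives were RLE, upper-quartile, total-count, chrM-free, FPKM-denominator and chrM mRNA scaling, 2 other filters, robust dispersion, DESeq2 1.42.0, limma on FPKM, the replicate number as a block, and leaving out libraries. LncR2 itself was not analysed here.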

Additional observations from a re-analysis of the deposited data

How the results depend on the processing

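The count of chrM genes called, 3 as reported, was 0 with robust dispersion and 0 with DESeq2, and 0 to 8 without 1 library (0 on leaving out 24 h replicate 2, 1 for 24 h replicate 3 and 8 for 0 h replicate 1). MT-RNR1 was called under 15 of 20 alternatives and MT-RNR2 under 14, with log2 fold changes from -1.44 to -0.78 and from -1.34 to -0.65, and MT-TV under 7. The cause of the lost calls was not tested. Scaling by FPKM denominators gave 10 machinery genes, 38 nuclear respiratory genes and 2542 of all genes called (394 as reported), split 2350 higher and 192 lower, where TMM gave 116 and 278. Limma on log2(FPKM + 1) and on log2(FPKM + 0.1) called 6 and 6 machinery genes, 27 and 27 respiratory genes, and 1795 and 1768 of all genes, and its chrM calls were MT-TV and MT-TM. The median of all genes moved to 0.24 with FPKM denominators, 0.29 with the chrM mRNA offset, and 0.18 and 0.23 with limma, and these turned the sign of 3 to 5 chrM genes. MT-TL1 became 0.0814, 0.154, 0.0950 and 0.0952, MT-CO2 0.00346, 0.0720, 0.0180 and 0.0180, and MT-CO3 0.0297, 0.0990, 0.0434 and 0.0434 in that order, and MT-ND3 0.0401 and MT-ND5 0.0525 with the chrM mRNA offset. Without a filter on low counts 4 respiratory genes and 740 of all genes were called (345 higher, 395 lower). Without both libraries numbered 3 the counts were 1 machinery gene, 5 respiratory genes and 845 of all genes. Leaving out 1 library gave 0 to 2 machinery genes, 0 to 13 respiratory genes, 0 to 1 nuclear copy (MTATP6P1) and 113 to 1497 of all genes. The difference in light-strand tRNA share, 0.487 percentage points, ran from -0.0947 without 0 h replicate 3 to 1.07 and was -0.0364 without 24 h replicate 1, and that of the log2 ratio of MT-RNR2 to MT-RNR1, 0.09, ran from -0.00269 without 0 h replicate 1 to 0.15. No light-strand tRNA passed the filter, so their share could not be given over tested genes alone.

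With the replicate number as a block, 11 chrM genes, 1 machinery gene (PTCD1), 14 respiratory genes, 1 nuclear copy and 1698 of all genes were called. All 11 chrM genes were lower, where 959 of the 13389 tested genes were called lower. Same-numbered libraries had correlations of 0.25, -0.02 and 0.43 of their deviations from group means. Libraries numbered 1 and 3 correlated best with their own number. By contrast, 0 h replicate 2 correlated best with 24 h replicate 1 (0.23), and 24 h replicate 2 with 0 h replicate 1 (0.10). The other crossed pairs had -0.38 to -0.07. The labels do not say that the numbers pair libraries, so the block was kept as an alternative. A batch shared by same-numbered libraries was not tested. The difference in the chrM mRNA to nuclear subunit ratio under the block was -0.44 (exact sign-flip p = 0.25, the smallest that 3 pairs allow). Counting error limits MT-TV and MT-TM, with 6 to 25 counts per library, and the untested tRNAs most.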
